A study of Clytia hemisphaerica and Astroides calycularis and Pocillopora acuta with 16 samples.

Results

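Levels of 2 sets of 3 orthologous ion channel genes were followed along the aboral-oral axis of cnidarian planula larvae, 6 of the 67007 gene models counted in the series. The ion transport channel trio was made up of MSTRG.884 in the hydrozoan Clytia hemisphaerica, STRG.8951 in the stony coral Astroides calycularis and XP_027058764 in the stony coral Pocillopora acuta. The neurotransmitter-gated channel trio was made up of MSTRG.15099, STRG.1789 and XP_027054448 in the same order of species. Both Clytia genes came from the study's own list of genes enriched at the aboral end, drawn from these libraries, and the coral genes were the orthologs named beside them. The 6 genes were thus chosen by the fold change between aboral and oral ends in these libraries, and the values of that contrast are given below as a description with no test.

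The planula is the swimming, ciliated larva of cnidarians. It swims with its aboral end in front and settles by that end, and the mouth later forms at the oral end. Proteins with an ion transport domain are the pore-forming subunits of cation channels related to the voltage-gated family, and they let potassium, sodium or calcium ions cross the membrane. Neurotransmitter-gated channels, the Cys-loop family, join an extracellular ligand binding domain to a transmembrane pore, and in vertebrates the family includes the receptors for acetylcholine, GABA, glycine and serotonin. Both kinds of channel carry electrical signals in nerve cells and other excitable or secretory cells. The domain annotations, an ion channel and an ion transport domain in all 3 genes of the first trio and the ligand binding and transmembrane domains in all 3 of the second, are those in the study's tables. Neither annotation gives the ion conducted or the ligand bound.

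RNA was sequenced from 16 libraries in 8 groups of 2. In Clytia, larvae of the laboratory Z strain were cut across at the stage that the study names late 2-day planulae. The aboral ends, oral ends and uncut larvae were sequenced. In Astroides, the same was done for mature larvae released by wild colonies. In Pocillopora, aboral and oral ends were taken from larvae of 2 parent colonies, C5 and C3, of the same genotype, which carried dinoflagellate symbionts, and no uncut larvae were analysed here. No treatment or genetic change was applied to any group, each library was a pool of larvae or cut ends, and the Pocillopora pools held only a few ends each.

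Gene counts per library summed to 30129270 to 31043438 in Clytia, with 23146999 to 26980344 for Astroides libraries and 20256336 to 24838448 for Pocillopora libraries. The end labels were compared with genes of described position. The aboral genes compared were Six3/6, FGFa1, Frizzled5/8, Dickkopf and a forkhead gene labelled here as FoxQ2a. They were higher at the aboral end in 5 of 5 cases in each species. The study gives its coral FoxQ2a under other gene models, so that name is not certain. Of Wnt ligands listed as oral, 8 of 8 in Clytia, 9 of 9 in Astroides and 9 of 9 in Pocillopora were higher orally. Both lists rest partly on these libraries, so the counts are partly built in and are no independent check. Over all genes tested, 18.4% were called higher aborally in Clytia, 3.47% in Astroides and 3.82% in Pocillopora. Higher orally were 14.8%, 3.51% and 4.22% in the same order. Replicates of a group differed by more than sampling noise in every group, with a chi-square per degree of freedom between 16.6 and 139.

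The ion transport channel gene of Clytia, MSTRG.884, was the most unequally distributed of the 6. It had 109 and 141 CPM, the reads of the gene per 1e+06 reads counted in the library, in aboral ends, from 3357 and 4236 reads, against 9.57 and 10.4 CPM in oral ends, from 297 and 322 reads. Every aboral library stood far above every oral one, and the 2 oral libraries lay close together. The means were 125 ± 22.4 CPM aborally and 9.99 ± 0.599 CPM orally (SD, n = 2 each), with a log2 fold change of 3.69 ± 0.14 (SE), or 12.9-fold. Among the 15599 Clytia genes tested, 149 had a higher log2 fold change and 99.0% a lower one.

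Its Astroides ortholog, STRG.8951, was spread more evenly. It had 162 and 205 CPM in aboral ends, against 85.6 and 104 CPM in oral ends. The groups did not overlap, and the oral values of this gene were closer to the aboral ones than in Clytia. The means were 184 ± 30.7 CPM aborally and 94.9 ± 13.2 CPM orally (SD, n = 2 each), a log2 fold change of 0.99 ± 0.17 (1.98-fold). The replicate 2 library was the higher at either end, and the aboral-to-oral ratio was 1.89 in replicate 1 and 1.97 in replicate 2.

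In Pocillopora, XP_027058764 had 132 CPM in the aboral library of colony C5 and 108 CPM in that of C3, against 69.0 CPM in the oral library of C5 and 33.8 CPM in that of C3. Both aboral libraries were above both oral ones. The means were 120 ± 17.3 CPM and 51.4 ± 24.9 CPM (SD, n = 2 each), and the log2 fold change with colony in the model was 1.31 ± 0.19 (2.48-fold). The ratio between the ends was 1.91 in C5 and 3.19 in C3, a gap that lay mostly in the oral libraries. With 1 library per colony and end, a difference of the ratio between colonies could not be tested.

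The neurotransmitter-gated channel gene of Clytia, MSTRG.15099, had fewer reads. It had 11.9 and 13.4 CPM in aboral ends, from 367 and 403 reads, against 3.25 and 3.23 CPM in oral ends, from 101 and 100 reads. The 95% exact binomial interval of the lowest aboral library ran from 10.7 to 13.2 CPM. This interval covers counting error only and leaves out the spread between replicates. The log2 fold change was 2.01 ± 0.13 (4.02-fold), and 478 genes of Clytia had a higher one.

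The Astroides ortholog of this channel, STRG.1789, showed the smallest difference of the 6. Its aboral libraries had 36.2 and 42.3 CPM, against 29.1 and 30.8 CPM in the oral ones. The groups did not overlap, yet the gap between them was 5.40 CPM while the 2 aboral libraries lay 6.07 CPM apart. Within pairs, the aboral-to-oral ratio was 1.24 in replicate 1 and 1.37 in replicate 2. The log2 fold change was 0.42 ± 0.13 (1.34-fold), and 3158 of the 21254 Astroides genes tested had a higher one, so that 85.1% lay below it.

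XP_027054448 of Pocillopora had 35.3 CPM in the aboral library of C5 and 46.5 CPM in that of C3, against 22.2 CPM and 23.8 CPM in the oral libraries of C5 and C3. Here colony C3 was the higher at both ends, and the oral libraries were nearly equal. The log2 fold change between the ends was 0.83 ± 0.15 (1.77-fold). The ratio was 1.59 in C5 and 1.95 in C3.

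**Figure D1:**
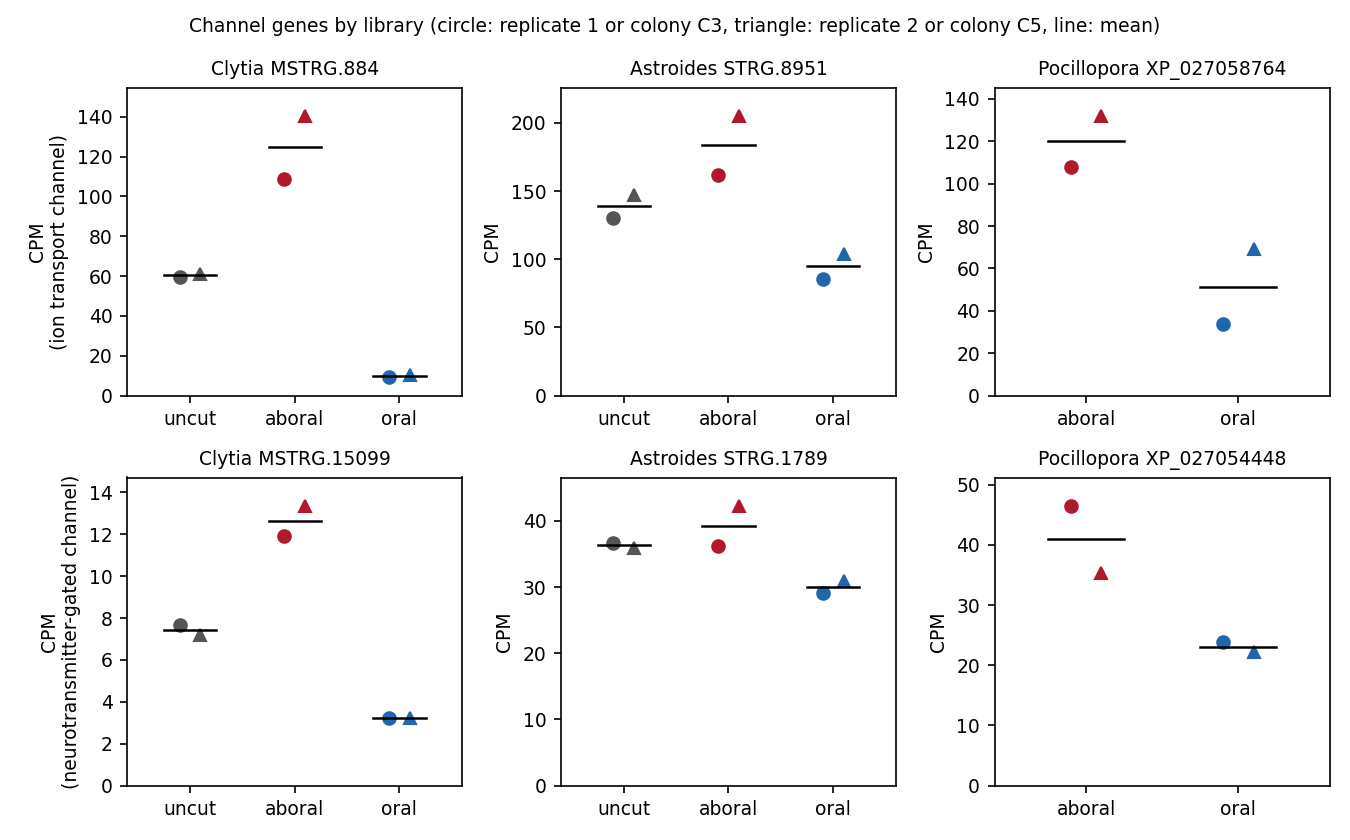
CPM of the 6 channel genes in each library (y axis, from 0), with uncut larvae, aboral ends and oral ends along the x axis. Circles are replicate 1 or colony C3, triangles are replicate 2 or colony C5, and lines are group means. Both aboral libraries lie above both oral libraries in every panel, with the widest gap in MSTRG.884 (109 and 141 CPM against 9.57 and 10.4 CPM) and the narrowest in STRG.1789 (36.2 and 42.3 CPM against 29.1 and 30.8 CPM).

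All 6 genes passed the filter on low counts, and in all 6 every aboral library was above every oral library. This held for 30.2% of the genes tested in Clytia, 20.2% in Astroides and 18.0% in Pocillopora, and for the channel genes nothing is read from it, since the contrast chose them. In each species the ion transport gene had the larger log2 fold change of the pair. In each trio the order of the fold changes was Clytia, Pocillopora, Astroides. Within the ion transport trio, Pocillopora at 1.31 and Astroides at 0.99 lay 0.33 apart on the log2 scale, against standard errors of 0.19 and 0.17. Within the other trio, 0.83 and 0.42 lay 0.41 apart, against standard errors of 0.15 and 0.13. Each species was normalised by itself, and the difference between species was not tested.

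Uncut larvae of Clytia and Astroides were not used to choose the genes, though they are set here against the aboral and oral libraries that were. MSTRG.884 had 59.5 and 61.1 CPM in uncut Clytia larvae. Both uncut libraries lay between the aboral and the oral ones and apart from each, so that the order was aboral, uncut, oral. On a scale where 1 is the aboral mean and 0 the oral mean, they lay at 0.43 and 0.45, with a mean of 0.44. MSTRG.15099 had 7.66 and 7.21 CPM in uncut larvae, a position of 0.45, and the same order with no overlap. Across the 1648 Clytia genes that were called and differed by more than 2-fold between the ends, the median position was 0.44. The interquartile range was 0.38 to 0.50, and both channel genes lay inside that range.

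In Astroides, STRG.8951 had 130 and 147 CPM in uncut larvae, between the aboral and the oral libraries with no overlap, at a position of 0.49 ± 0.14 (SD of the 2 uncut libraries). STRG.1789 had 36.7 and 36.0 CPM in uncut larvae. These overlapped the aboral values of 36.2 and 42.3 CPM, so that aboral and uncut libraries could not be ordered for this gene, while both lay above the oral ones. Its position, 0.68 ± 0.058, was outside the interquartile range of 0.41 to 0.61 for the 1189 Astroides genes called and over 2-fold. It rested on a narrow gap between the ends. Without the second aboral library it was 1.01, and without the first it was 0.52.

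**Figure D2:**
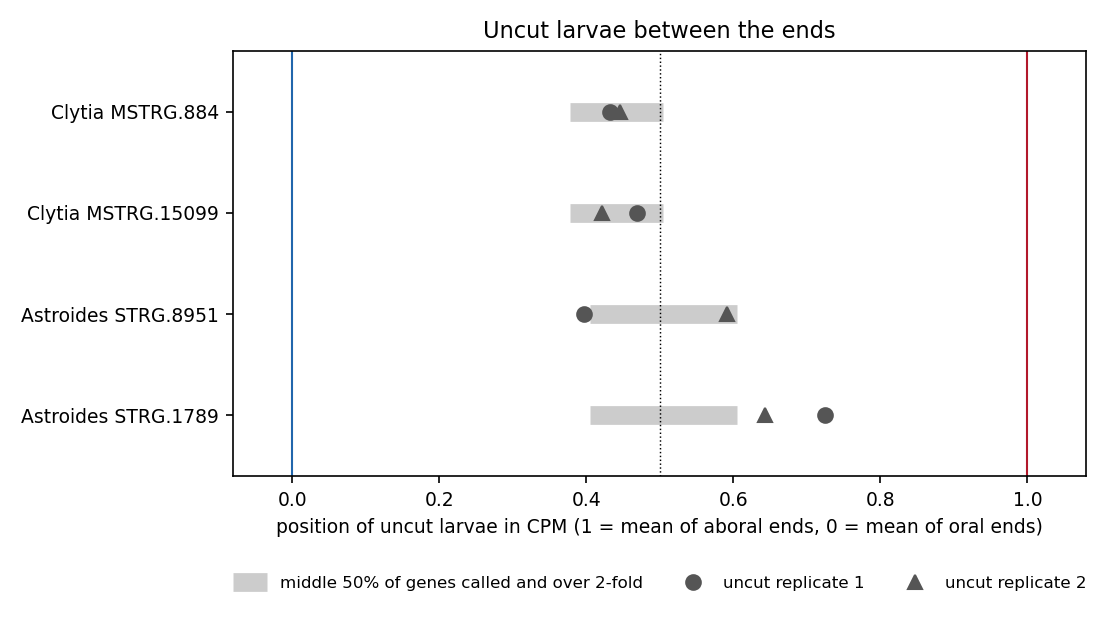
Position of each uncut library between the mean of the aboral ends (1) and the mean of the oral ends (0), in CPM on the x axis, for the 2 Clytia and 2 Astroides channel genes in rows. Circles and triangles are uncut replicates 1 and 2, grey bars are the interquartile range over genes called and more than 2-fold different between the ends, and the dotted line is the midpoint. STRG.1789 at 0.64 and 0.72 lies to the right of its bar, and the other genes lie on or at the edge of theirs.

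Tested with edgeR's quasi-likelihood test against the mean of the ends on the log scale, 1 of the 4 genes was called in uncut larvae. MSTRG.884 had a log2 fold change of 0.77 ± 0.11 in uncut larvae over cut ends (adjusted p = 0.0118), in a comparison that called 186 of the Clytia genes, or 1.19%. The log scale sets the uncut 60.3 CPM against 35.1 CPM, the geometric mean of 2 very unequal ends. The midpoint of the ends, 67.4 CPM, also lies above that geometric mean. The log-scale call is thus partly built in by the gap that chose the gene, and nothing is read from it. Against both ends added together on the linear scale, a comparison chosen after the data were seen, the gene was at -0.16 ± 0.12 (adjusted p = 0.9999), and edgeR called 0 genes of Clytia, with 362 at an unadjusted p below 0.05. The log-scale call was also lost without either uncut library, with an adjusted p of 0.0733 without the first and 0.106 without the second, in a range from 3.76e-07 to 0.106 over 10 alternatives.

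The other 3 genes did not differ past the threshold between uncut larvae and cut ends. MSTRG.15099 had a log2 fold change of 0.21 ± 0.11 (edgeR adjusted p = 0.999) on the log scale and -0.10 on the linear scale. STRG.8951 was at 0.076 ± 0.14 (edgeR adjusted p = 0.946), with a 95% interval from -0.27 to 0.42. STRG.1789 was at 0.085 ± 0.11 (edgeR adjusted p = 0.924), with an interval from -0.18 to 0.35. The Astroides comparison called 47 genes, or 0.221%, and 0 on the linear scale, with 701 at an unadjusted p below 0.05. With the replicate number as a block, the log-scale comparison called 442 genes in Clytia and 200 in Astroides, and the calls on the 4 channel genes were the same.

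The 2 Pocillopora genes could be compared between parent colonies. XP_027058764 was higher in C5 than in C3 at both ends, by a log2 fold change of 0.56 ± 0.19 (edgeR adjusted p = 0.0982), and did not pass the threshold. The 95% interval of that difference, not adjusted for the number of genes, ran from 0.081 to 1.03. XP_027054448 went the other way at both ends, with a log2 fold change of -0.35 ± 0.15 (edgeR adjusted p = 0.158) and an interval from -0.73 to 0.027. In the same comparison 3302 genes, 19.2% of those tested, were called. Each colony was represented by 1 library per end, so the ends stood in for replicates and larval batch and colony cannot be told apart.

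**Figure D3:**
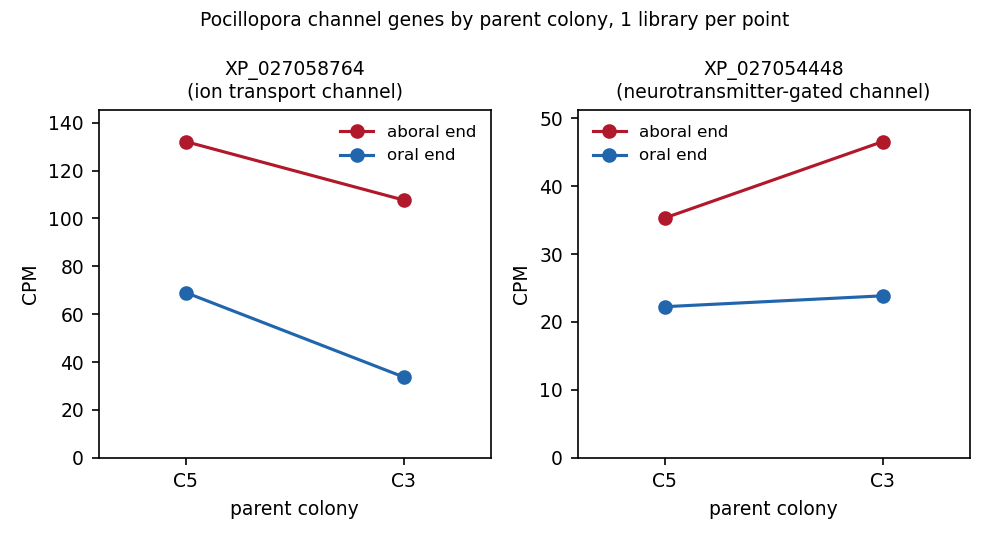
CPM (y axis, from 0) of the 2 Pocillopora channel genes in larvae of parent colonies C5 and C3 (x axis), 1 library per point, with red for aboral and blue for oral ends. XP_027058764 slopes down to C3 at both ends (132 and 108 CPM aborally), whereas XP_027054448 slopes up (35.3 and 46.5 CPM aborally).

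The other channel genes of the study's tables gave a frame for the 2 trios. The study listed 33 other channel genes as aboral in Clytia, and all 33 were called higher at the aboral end, with a median log2 fold change of 2.50 against -0.0084 over all genes tested, where 18.4% were called higher at the aboral end and 14.8% higher at the oral end. That list was drawn from these libraries and is not independent evidence of its direction. Its largest values were in the ion transport gene XLOC_034271 (6.52), the neurotransmitter-gated gene XLOC_041768 (4.27) and the ion transport gene XLOC_012150 (4.07). Its smallest were in the ion transport genes XLOC_010378 (1.52), MSTRG.6055 (1.55) and XLOC_000033 (1.74). MSTRG.884 at 3.69 lay in the upper part of this range and MSTRG.15099 at 2.01 in the lower part. The 1 channel gene listed as oral, the ion transport gene XLOC_011480, was at -2.67.

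In Astroides, 5 of 5 listed aboral and 5 of 5 listed oral channel genes were called in the listed direction, where 3.47% of all genes were called higher aborally and 3.51% higher orally. These genes were listed on the same contrast in the same libraries, so their counts are fixed by the listing and nothing is read from them, which holds for the Pocillopora lists too. The aboral ones ran from the ion transport gene STRG.36544 (1.91) to the polycystin gene STRG.10771 (3.27), a family of cation channels found in cilia of many animals. They included a neurotransmitter-gated channel, STRG.14660 (2.07), with 124 CPM aborally and 30.0 CPM orally. The oral ones ran from -1.90 in STRG.24735, an ion transport gene, to -2.54 in STRG.37406, a neurotransmitter-gated gene. In Pocillopora, 2 of 2 listed aboral channel genes were called, XP_027059409 (polycystin, 3.73) and XP_027052782 (ion transport, 1.95), and 1 of 1 listed oral, XP_027050437 (neurotransmitter-gated, -3.32), where 3.82% and 4.22% of all genes were called higher aborally and orally. Without the parent colony in the model, none of these 3 was called, as edgeR then called 0 genes at either end, with 837 higher aborally and 750 higher orally at an unadjusted p below 0.05.

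Orthologs of listed channel genes were examined in the species that had not listed them, with the trio genes left out. These lists pool orthologs of genes listed as aboral with orthologs of genes listed as oral. Their counts and medians are thus not those of orthologs of aboral genes alone. Any ortholog listed in its own species was also left out, which rested on the contrast between the ends in these libraries. The counts of orthologs below are thus not independent of that contrast and lack such genes. Nothing is read from how they compare with the shares over all genes. Of 9 in Astroides, 2 were called higher at the aboral end and 0 higher at the oral end, beside 3.47% and 3.51% of all genes, with a median log2 fold change of 0.48 and 5 at an unadjusted p below 0.05. They were STRG.14104 (polycystin, 1.79) and STRG.28451 (neurotransmitter-gated, 1.04). With the replicate number as a block, 5 were called higher aborally and 1 higher orally, where the background was 1312 and 1299 of the 21254 genes tested. Without the second aboral or the first oral library, 0 were called, and without the second oral library 1 was. Of 14 tested in Pocillopora, 1 was called higher at the aboral end, XP_027042758 (neurotransmitter-gated, 1.65), and 0 higher at the oral end, beside 3.82% and 4.22% of all genes, with a median of 0.17, 4 at an unadjusted p below 0.05, and 1 called by DESeq2. Another 2 orthologs did not pass the filter. Of those at an unadjusted p below 0.05, XP_027047429 (0.60) and XP_027043076 (-0.84) were orthologs of Astroides genes listed as oral. With RLE factors in place of TMM, 0 of the 14 were called. Of 2 in Clytia, the amiloride-sensitive channel gene XLOC_020727 was higher at the oral end (-1.52).

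Another 6 Clytia channel genes listed as aboral had a named ortholog in both corals, as the 2 trios do. Their log2 fold changes ran from 1.79 to 2.699 in Clytia. In Astroides they lay between -0.62 and 1.04, and in Pocillopora between -0.29 and 0.31. In Astroides, STRG.8951 lay near the top of that range and STRG.1789 near its median of 0.58. In Pocillopora, both trio members, at 1.31 and 0.83, were above all 6. Of the 6 Pocillopora orthologs, edgeR called 0, and 0 had an unadjusted p below 0.05. Every aboral library was above every oral library in all 3 species for 1 of the 6 trios, the ion transport trio of XLOC_006313 (1.79), STRG.25783 (0.94) and XP_027058573 (0.12). These trios were set beside the 2 studied here after the values of both were known, and the comparison is a description. The 2 trios were chosen on this contrast and the 6 are those left over. Their rank above the 6 is thus partly built in, and nothing is read from it.

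**Figure D4:**
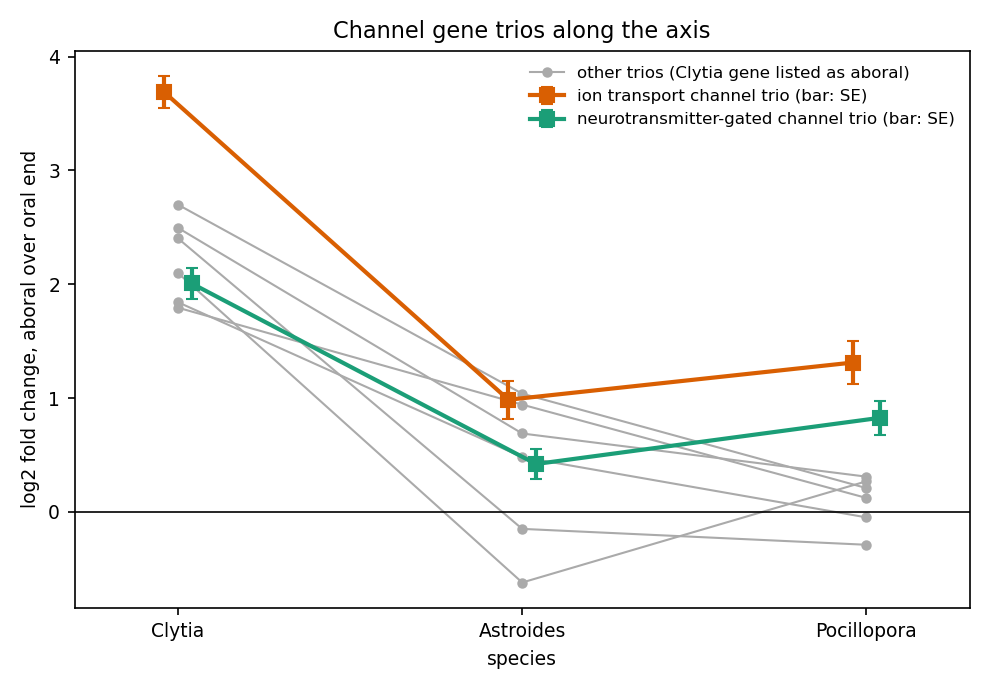
Log2 fold change of aboral over oral ends (y axis) in the 3 species (x axis) for the ion transport trio (orange) and the neurotransmitter-gated trio (green), with bars of 1 SE, and for 6 other channel trios with a Clytia gene listed as aboral (grey). The orange and green points in Pocillopora, at 1.31 and 0.83, lie above the grey ones, which end between -0.29 and 0.31. The orange and green trios were chosen on this contrast, so nothing is read from that rank.

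Channel genes among the study's single-cell markers were named from other libraries. Those that the study also listed as aboral or oral were left out here, and so were such orthologs. That removal rested on the contrast between the ends in these libraries, so the counts below are not independent of it and lack the listed genes. Of 14 in Clytia, 8 were called higher aborally and 2 orally, with a median of 0.37, beside 18.4% and 14.8% of all genes, and the oral count is about the share over all genes. The largest among those called were XLOC_021285 (ion transport, 0.81), MSTRG.15731 (anoctamin, a family of chloride channels and lipid scramblases, 0.65) and MSTRG.16622 (amiloride-sensitive sodium channel family, 0.59). The ones higher at the oral end were XLOC_003093 (polycystin, -0.32) and XLOC_031462 (TMEM175, -0.30), the second of which was not called by DESeq2 or with the aboral and oral libraries alone. Without 1 of the aboral or oral libraries, 4 to 7 were higher aborally and 0 to 1 orally. In Astroides, 2 of 2 were higher aborally, STRG.2920 (polycystin, 1.93) and STRG.2823 (neurotransmitter-gated, 1.60), and neither was called without the second aboral library. In Pocillopora, edgeR and DESeq2 each called 0 of 4, with 2 at an unadjusted p below 0.05. Of the orthologs of such genes, 0 of 6 were called in Astroides by edgeR or DESeq2, with 0 at an unadjusted p below 0.05, and 1 of 6 in Pocillopora, the anoctamin gene XP_027038292 (0.92), which was not called with RLE factors, while DESeq2 and the fit with no filter each called 2. The 6 trio genes were left out of these lists beforehand, so their absence does not show whether the study had them as markers.

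Markers of aboral cell types also differed between the ends, and their part in the channel values was not tested. The study picked out these cell types partly by genes it had called aboral in these libraries, so the counts of markers are partly built in and are no independent evidence. In bulk samples, fewer cells of a type and less RNA per cell cannot be told apart. In Clytia, 18 of 18 neurosecretory markers, 17 of 20 GLWamide neuron markers, 24 of 26 QYFamide neuron markers and 14 of 14 HFRIamide neuron markers tested were higher at the aboral end, where 18.4% of all genes were. The summed level of the neurosecretory markers was 5010 to 5700 CPM in aboral ends and 33.1 to 38.0 CPM in oral ends, and that of the QYFamide neuron markers was 332 to 356 CPM and 96.1 to 110 CPM. That of the HFRIamide neuron markers was 1778 to 1797 CPM and 95.4 to 96.3 CPM. Of 7 gland mucous markers in Clytia, 6 were higher aborally and 1 orally, where 14.8% of all genes were higher orally. Their summed level was 6615 to 7205 CPM in aboral ends and 2919 to 2948 CPM in oral ends.

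In Astroides, 25 of 28 apical cell markers (3920 to 5076 CPM in aboral ends and 821 to 947 CPM in oral ends) and 31 of 38 gland mucous cell markers (11556 to 12231 CPM and 1719 to 1784 CPM) were higher at the aboral end, as were 16 of 18 and 5 of 7 markers of the coral neurosecretory types 1 and 2. Of 17 GLWamide neuron markers, 4 were. Over all Astroides genes tested, 3.47% were called higher aborally and 3.51% orally. In Pocillopora, 18 of 24 apical, 32 of 41 gland mucous, 16 of 28 neurosecretory 1, 5 of 24 neurosecretory 2 and 5 of 16 GLWamide neuron markers were higher aborally. Over all Pocillopora genes tested, 3.82% were called higher aborally and 4.22% orally. The 6 neural markers were AshA, ELAV and the GVWamide, RFamide, GLWamide and Damicornin genes, so most of them mark separate neuron types. In either coral, 1 was higher at each end. The RFamide gene was higher aborally (log2 fold change 0.90 in Astroides and 2.85 in Pocillopora) and the GVWamide gene orally (-1.55 and -1.31). AshA (0.36 and 0.10) and ELAV (0.45 and -0.13) were called in neither coral. Summed levels of the 6 were 595 to 653 CPM aborally and 433 to 573 CPM orally in Astroides. In Pocillopora they were 265 to 297 CPM and 213 to 244 CPM. The gastroderm markers were higher at the oral end in 3 of 3 cases in Pocillopora (1728 to 2218 CPM aborally and 4219 to 4346 CPM orally), and 0 of 3 were called in Astroides (1016 to 1112 CPM and 1331 to 1446 CPM), with 1 at an unadjusted p below 0.05. The digestive filament markers were higher orally in 2 of 2 cases in Astroides (20.3 to 20.5 CPM aborally and 71.5 to 89.2 CPM orally) and in 1 of 2 in Pocillopora (96.4 to 106 CPM and 189 to 196 CPM). In Astroides, 1 of 3 epidermal markers was also higher orally and 1 of 3 cnidocyte markers higher aborally, and edgeR called 0 of 3 of either kind in Pocillopora, with 0 at an unadjusted p below 0.05. Of 2 secretory markers in each coral, edgeR called 0, again with 0 at an unadjusted p below 0.05. No marker list named here had all of its genes at 0.

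The genes whose profile over libraries was most like that of each channel gene were sought by the root mean square difference of centred log2 CPM. The search covered only annotated genes of at least 10 CPM. These numbered 1444 of the 15599 genes tested in Clytia, 245 of 21254 in Astroides and 254 of 17164 in Pocillopora. Nearer genes outside these sets were not looked for. They number 3 per gene, and the likeness is a description over libraries that differ mainly by end. For MSTRG.884, over 6 libraries, they were MSTRG.6952, with a MAM domain (0.098), the forkhead gene XLOC_014597 (0.11), labelled above as FoxQ2a, and the lipase gene MSTRG.5390 (0.12). For MSTRG.15099 they were the cation efflux gene XLOC_001930 (0.044), XLOC_004148, annotated as a putative mitochondrial precursor protein (0.058), and XLOC_031439, with a C-terminal domain of programmed cell death protein 2 (0.060).

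For STRG.8951 the nearest of the 245 genes searched was another channel, the neurotransmitter-gated STRG.28451 (0.090). The Patched family gene STRG.7495 (0.10) and the peptidase gene STRG.17549 (0.12) followed. For STRG.1789 they were STRG.43534, with the hedgehog signalling domain (0.057), the tubulin gene STRG.38993 (0.060) and ELAV, STRG.3504, an RNA-binding protein gene among the neural markers (0.061). In Pocillopora, over 4 libraries, XP_027058764 was nearest to the sulfotransferase gene XP_027053251 (0.11), GDF11, XP_027045428, a TGF-beta family ligand in vertebrates (0.13), and the homeodomain gene XP_027043497 (0.13). XP_027054448 was nearest to NKX2-5, XP_027041575 (0.043), the RFX gene XP_027036421 (0.055), a family of transcription factors known for ciliary genes, and the guanylate cyclase gene XP_027045335, with a haem-NO-binding domain (0.14). With so few libraries, such nearness is shared by many genes that differ between the ends.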

How the data were processed

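Per the study's methods, paired-end DNBseq reads were mapped by the authors with STAR 2.7.11a to a chromosome-level Clytia genome, an in-house Astroides genome and, for P. acuta, the P. damicornis genome, and reads per gene were counted. The strand setting is not given in the sources used here. The deposited values are raw counts, and CPM were computed from them. Each species was fitted separately with edgeR 4.0.16 (R 4.3.3), TMM factors, filterByExpr and the quasi-likelihood test, with Benjamini-Hochberg adjusted p under 0.05 over all genes as the call. Pocillopora fits held the parent colony, and the scripts were tested on simulated data. Alternatives were RLE factors, no filter, DESeq2 1.42.0, a replicate block, libraries left out, and linear sums of the ends. Same-numbered libraries were taken as pairs, since the study counts the ends and uncut larvae together for each biological replicate, and their deviations correlated between 0.24 and 0.83 across genes. Clytia and Astroides p-values and standard errors come from fits without this pairing, save where the replicate block is named, and measure the spread between 2 pools per group. The members and lists were chosen with earlier results of these data known. Named genes are the 6 members, the 3 most similar profiles for each, and in each channel list up to 3 called genes with the largest and smallest fold change; genes of other trios were named after their values were seen. None of the gene IDs matched the RefSeq table at hand, so no sequence or position is given.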

Additional observations from a re-analysis of the deposited data

Results flagged for a closer look

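In 3 of the other channel trios, every library of one species moved one way between the ends and every library of another the opposite way, and the differences were not tested. In the trio of the amiloride-sensitive channel gene STRG.39359, the Astroides gene was higher at the aboral end (log2 fold change 2.22) and its Clytia ortholog XLOC_020727 higher at the oral end (-1.52). In the polycystin trio, XLOC_012372 of Clytia was at 2.40 and STRG.14977 of Astroides at -0.15 ± 0.20 (SE, edgeR adjusted p = 0.811), a value within its own error of 0. In an ion transport trio, XLOC_045142 of Clytia was at 2.10 and STRG.24657 of Astroides at -0.62 ± 0.20 (edgeR adjusted p = 0.155), and the Astroides gene was called higher at the oral end only with the replicate block. Groups of 2 libraries were too small for a search for single libraries far from the rest.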

How the results depend on the processing

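Across 60 alternative values, the aboral-over-oral fold changes of the 6 channel genes kept their direction, and 55 stayed within the replicate spread. Leaving out 1 library gave log2 fold changes from 3.49 to 3.87 for MSTRG.884, 1.91 to 2.09 for MSTRG.15099, 0.78 to 1.13 for STRG.8951 and 0.28 to 0.51 for STRG.1789. For Pocillopora this left 1 pair of libraries, a value with no test and no count of calls. The 8 alternatives for the colony difference that carried a test changed no call. In uncut larvae against cut ends, leaving out 1 library gave 0.68 to 0.87 for MSTRG.884 and -0.032 to 0.18 for STRG.8951, which turned negative without aboral replicate 1 (-0.015) or uncut replicate 2 (-0.032). With the ends summed on the linear scale, MSTRG.884 was at -0.16 and MSTRG.15099 at -0.10, with 0 genes called in Clytia and 0 in Astroides by edgeR (362 and 701 at an unadjusted p below 0.05). Positions of uncut larvae ran from 0.39 to 0.51 for MSTRG.884, 0.41 to 0.48 for MSTRG.15099, 0.40 to 0.65 for STRG.8951 and 0.52 to 1.01 for STRG.1789.

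Counts of calls moved more. In the fits reported above, 738 Astroides genes were higher aborally and 747 orally, 656 and 725 Pocillopora genes likewise, 2304 Clytia genes were higher orally, uncut larvae differed in 186 Clytia and 47 Astroides genes, and colonies in 3302 genes. With the replicate block, 1312 Astroides genes were higher aborally and 1299 orally, 3546 Clytia genes were higher orally, and uncut larvae differed from cut ends in 442 and 200 genes of Clytia and Astroides. The block changed no call on a channel gene of the trios. Without the parent colony, the pairing of the Pocillopora fit, edgeR called 0 genes higher aborally and 0 orally (837 and 750 at an unadjusted p below 0.05), and without the end in the fit 87 genes differed between colonies. DESeq2 called 208 Astroides genes in uncut larvae. Leaving out 1 library gave 289 to 558 Astroides genes higher aborally, 231 to 566 higher orally and 8 to 32 in uncut larvae, and 1360 to 2157 Clytia genes higher orally and 112 to 216 in uncut larvae. The cause was not tested for any of these. Depth limits MSTRG.15099 most, with 100 reads in its lowest library.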
